A study of Mus musculus with 8 samples.

Results

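The genes described here are the ATP-binding cassette (ABC) family, chosen by name: every gene whose single symbol in the platform annotation is Abc followed by a letter from a to g and a number. The rule found 36 genes, represented by 65 probe sets, among the 12393 genes measured. RNA came from stable lines of mouse T cell lymphoma lacking Snf5, the Smarcb1 product, which is part of SWI/SNF, a machine that shifts nucleosomes. Cells of these lines were sorted by surface CD44, a receptor for hyaluronan, into a CD44hi subpopulation and a CD44lo subpopulation, with 4 arrays each, and all groups share the Snf5 deficiency. The labels do not name the single lines, nor say whether replicates are separate cultures, so the p-values rest on array-to-array spread that may be no more than technical.

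ABC proteins couple the hydrolysis of ATP to movement of a substrate across a membrane. Some carry a pair of ATP-binding domains in 1 chain, and others have 1 such domain and work as dimers. In tumour cells the family is known above all for P-glycoprotein, the product of human ABCB1, which expels many hydrophobic drugs. Mice have a pair of genes for it, Abcb1a and Abcb1b. Normal lymphocytes are known to carry P-glycoprotein activity as well, and in T cells the sterol exporters Abca1 and Abcg1 are known to limit membrane cholesterol.

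The sort was visible in the RNA. Cd44 had log2 intensities of 11.20, 11.63, 11.20 and 11.73 in CD44hi and 5.79, 5.94, 5.55 and 4.92 in CD44lo, replicates 1 to 4 in order, as for all lists of array values below. The T cell marker Cd3e averaged 13.06 in CD44hi, against 13.10 in CD44lo, and 0 of 7 measured T cell markers passed. Nor did any of 5 erythroid, 6 B cell or 7 stromal markers. In the erythroid, B cell and stromal lists the groups did not overlap for 1 gene each. Klf1 (erythroid) differed by 0.59 (limma adjusted p = 0.190), Ms4a1 (B cell) by 1.31 (limma adjusted p = 0.0961) and Postn (stromal) by -2.40 (limma adjusted p = 0.0667). Nor did the groups overlap for the T cell markers Cd3d (-0.04) and Cd3g (-0.05), and over all genes this held for 10.3%. Differences of the other measured markers were -0.15 to 0.004 in the erythroid list and -0.18 to 0.35 in the B cell list. With the replicate number as a block Postn fell (limma adjusted p = 0.00169), and Ms4a1 and Klf1 did not pass (limma adjusted p = 0.0661 and 0.207). Summed intensities ran from 286.6 to 381.6 in CD44hi and 255.7 to 303.03 in CD44lo for the erythroid list, from 241.7 to 332.3 in CD44hi and 225.6 to 243.6 in CD44lo for the B cell list, and from 406.3 to 949.1 in CD44hi and 1241 to 2721 in CD44lo for the stromal list. The stromal sums differed mainly through Postn, whose linear intensity averaged 375.5 in CD44hi and 1646 in CD44lo. The other measured stromal markers had log2 differences of -0.16 (Col3a1) to 0.05 (Col1a1). Array RNA comes from many cells at once, so a lower value may mean fewer cells of a kind or less RNA in each, which cannot be told apart. Array medians, as linear intensity, spanned 320.3 to 339.1. Correlated across genes between CD44hi and CD44lo arrays, deviations from the group mean set numbers 1 and 3 apart from numbers 2 and 4. The correlations were 0.404 to 0.574 for equal numbers and 0.372 to 0.521 for different numbers both odd or both even. For an odd with an even number they were -0.564 to -0.382. Differences within each of these pairs of numbers are therefore given beside the main ones. RNA quality, read as the 3' over 5' log2 ratio for Gapdh, stood at 0.816 ± 0.052 in CD44hi, against 0.696 ± 0.036 in CD44lo (SD, 4 arrays each), with an exact permutation p of 0.0286 (two-sided), which is the lowest possible among 70 assignments. For Actb the ratio was 0.626 ± 0.152 in CD44hi, against 0.498 ± 0.105 in CD44lo (exact permutation p = 0.229, two-sided), and in both groups it was higher on arrays 2 and 4 than on arrays 1 and 3. The part of these ratios and of the marker genes in the results that follow was not tested.

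Of the 36 members, 1 rose in CD44hi, Abca1, and 1 fell, Abcb1b (limma with Benjamini-Hochberg adjustment over all genes, adjusted p under 0.05). Over all genes tested, 2.03% rose and 1.78% fell. With the replicate number as a block the same counts of 1 and 1 were found among the members, the same genes, where 3.08% of all genes rose and 3.11% fell. The median difference of the 36 members was -0.02 on the log2 scale, against -5.86e-05 over all genes, with 16 differences above 0 and 20 below. The median was -0.04 between arrays 1 and 3 of the groups and -0.01 between arrays 2 and 4. In 4 members, or 11.1%, the groups did not overlap, and over all genes this held for 10.3%. The share of the family that differed was thus near that of the array as a whole, and the members are described singly below. Of the 36, 8 had both group means below 5.27, the 25th percentile of all log2 values, a level at which a difference is hard to measure.

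**Figure D1:**
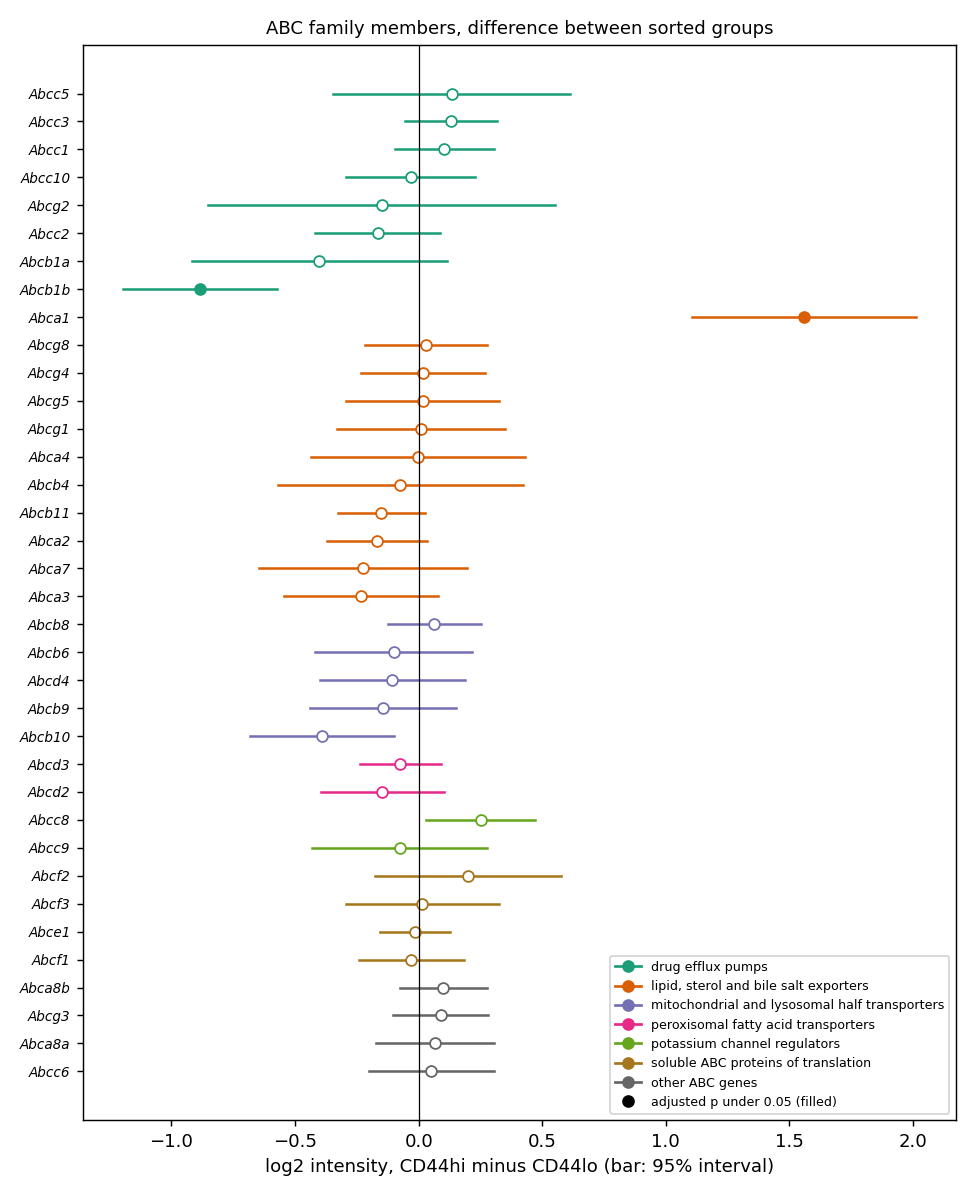
Difference in log2 intensity, CD44hi minus CD44lo, for the 36 ABC genes, grouped by role. Points are the probe set with the highest mean, bars are 95% intervals of the limma fit over 4 arrays per group, and filled points passed at an adjusted p under 0.05. Abca1 stands alone on the right at 1.56 and Abcb1b on the left at -0.89; the other 34 points lie between -0.40 and 0.25.

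Promoter windows of the members were taken from RefSeq (GRCm38.p6), from 250 bases before to 50 after the annotated start, and were found for 27 of the 36 genes. Those of Abca1 and Abcb1b are shown because these genes differed between the groups, and those of Abcb1a and Abcb4 because they flank Abcb1b on chromosome 5 and are its close paralogs. Both strands were searched for 4 short motifs, and matches are in capitals: the GC box GGGCGG, the CCAAT box with its name as letters, the E box CACGTG and the TATA box TATAAA. The sequences read 5′ to 3′ along the gene. Abca1 lies at chr4:53159846-53160145 on the minus strand, and the others on the plus strand at chr5:8797897-8798196 (Abcb1b), chr5:8566841-8567140 (Abcb1a) and chr5:8893471-8893770 (Abcb4).
Abca1: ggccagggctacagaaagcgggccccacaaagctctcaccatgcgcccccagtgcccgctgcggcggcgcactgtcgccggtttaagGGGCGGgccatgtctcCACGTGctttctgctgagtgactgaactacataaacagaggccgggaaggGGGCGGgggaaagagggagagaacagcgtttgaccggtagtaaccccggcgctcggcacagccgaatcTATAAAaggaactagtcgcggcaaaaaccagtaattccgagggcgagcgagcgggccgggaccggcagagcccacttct
Abcb1b: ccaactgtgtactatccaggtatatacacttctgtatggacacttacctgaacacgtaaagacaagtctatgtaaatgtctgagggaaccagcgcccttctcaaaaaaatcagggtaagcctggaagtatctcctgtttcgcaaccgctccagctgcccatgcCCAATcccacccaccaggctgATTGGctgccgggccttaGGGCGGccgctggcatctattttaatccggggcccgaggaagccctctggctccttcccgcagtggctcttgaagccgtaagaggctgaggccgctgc
Abcb1a: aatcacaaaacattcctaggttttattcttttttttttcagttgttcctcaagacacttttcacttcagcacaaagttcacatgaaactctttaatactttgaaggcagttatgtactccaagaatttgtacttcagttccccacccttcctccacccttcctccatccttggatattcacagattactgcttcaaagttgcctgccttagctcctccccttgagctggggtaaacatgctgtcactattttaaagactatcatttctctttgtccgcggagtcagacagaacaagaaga
Abcb4: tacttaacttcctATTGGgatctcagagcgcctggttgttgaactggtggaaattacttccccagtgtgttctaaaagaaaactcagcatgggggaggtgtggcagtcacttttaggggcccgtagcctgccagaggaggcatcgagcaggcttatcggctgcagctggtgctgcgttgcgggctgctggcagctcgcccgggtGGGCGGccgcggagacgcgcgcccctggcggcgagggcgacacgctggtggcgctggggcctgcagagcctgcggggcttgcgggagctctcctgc

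The Abca1 window held GGGCGG at -163 and -97, CACGTG at -147 and TATAAA at -29, counted from the annotated start to the first base of the match. The Abcb1b window held a CCAAT on each strand, at -87 and -66, and GGGCGG at -48. The Abcb1a window held none of the 4 motifs, and that of Abcb4 held GGGCGG at -46 and a CCAAT on the minus strand at -237. Among all 32851 windows of this length GGGCGG was found in 35.7%, CCAAT in 37.4%, CACGTG in 7.15% and TATAAA in 13.6%. Of the 27 members with a window, 16, 10, 4 and 6 genes held these motifs in that order. A gene counted if any of its windows held the motif, so these counts and the shares per window are not directly comparable. A match describes the letters of the window and no more.

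The drug efflux pumps comprise P-glycoprotein, the multidrug resistance proteins of the C subfamily and Abcg2, and 8 of the 9 listed genes were measured. Of these 8, Abcb1b fell in CD44hi, 0 rose and 7 did not pass, with a median difference of -0.09. Over all genes 1.78% fell and 2.03% rose. Abcb1b is known in mice as the P-glycoprotein gene of the adrenal gland and the pregnant uterus, and as the one that drug-selected cells often raise. It had log2 intensities of 11.35, 10.89, 11.49 and 10.95 in CD44hi and of 12.10, 11.99, 12.04 and 12.09 in CD44lo. Every CD44hi array lay below every CD44lo array, and the CD44lo values were close together. CD44hi averaged 11.17 ± 0.30, against 12.06 ± 0.05 in CD44lo (SD, 4 arrays each). The intensity was thus 1.85-fold lower in CD44hi, a log2 difference of -0.89 with SE 0.14 and, by limma, an adjusted p of 0.00756. With the means of arrays 1 and 3 and of arrays 2 and 4 as the values, 2 per group, it no longer passed (limma adjusted p = 0.424). By replicate number the differences were -0.75, -1.10, -0.55 and -1.13, so the fall was seen at all 4 numbers, at -0.65 between arrays 1 and 3 and -1.12 between arrays 2 and 4. Abcb1b had 1 probe set, and since Abcb1a and Abcb1b are close in sequence, how far each transcript adds to the other's signal is not known here.

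Abcb1a is known as the P-glycoprotein gene of the gut wall and the blood-brain barrier in mice. It had log2 intensities of 10.88, 11.56, 11.13 and 11.90 in CD44hi and 11.46, 12.08, 11.60 and 11.93 in CD44lo. The groups overlapped, although at each number the CD44hi array was the lower (-0.58, -0.52, -0.47 and -0.03). The difference of -0.40 (95% interval -0.92 to 0.11) did not pass (limma adjusted p = 0.573), nor with the replicate block (limma adjusted p = 0.0896). Its second probe set, 1419758_at, had 10.58, 11.24, 10.66 and 11.30 in CD44hi and 11.08, 11.60, 11.23 and 11.53 in CD44lo. That probe set differed by -0.42. When every probe set was tested with the replicate block, it passed by limma with an adjusted p of 0.0412, being lower in CD44hi as were 2.63% of all probe sets. Without the block its adjusted p was 0.473.

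Abcb4, which moves phosphatidylcholine into bile and is grouped with the lipid exporters, is the other neighbour of Abcb1b on chromosome 5. It had 7.37, 8.22, 7.49 and 8.32 in CD44hi and 7.73, 7.92, 7.97 and 8.08 in CD44lo. The CD44hi arrays enclosed the CD44lo arrays, with a difference of -0.07 (SE 0.22, limma adjusted p = 0.955). The difference was -0.42 between arrays 1 and 3 and 0.27 between arrays 2 and 4, so it had no one direction. Across the 3 paralogs the differences were thus -0.40 for Abcb1a, -0.89 for Abcb1b and -0.07 for Abcb4, and the differences between these values were not tested. Of the other measured genes within 3 places of Abcb1b in the RefSeq order (Adam22, Dbf4, Crot and Tmem243), none passed without the block, and Tmem243 passed with it (log2 difference -0.62, block SE 0.10, limma adjusted p = 0.0194).

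**Figure D2:**
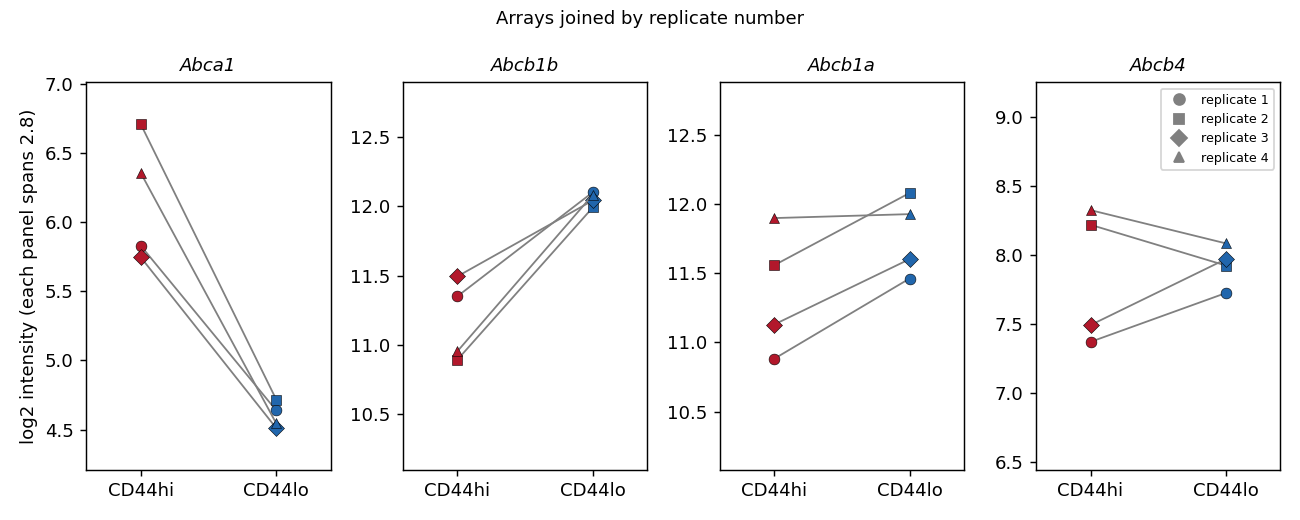
Log2 intensity of Abca1 and of the 3 neighbouring genes Abcb1b, Abcb1a and Abcb4 on each array, CD44hi left and CD44lo right in each panel, lines joining arrays of the same replicate number, all panels spanning the same range. All 4 lines go down from CD44hi to CD44lo for Abca1 and up for Abcb1b and Abcb1a, while those of Abcb4 cross.

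The 2 other pumps best known in tumours showed no passing difference. Abcc1, the exporter of glutathione conjugates and leukotriene C, had 11.76, 11.78, 11.95 and 11.82 in CD44hi and 11.57, 11.87, 11.67 and 11.78 in CD44lo, a difference of 0.10 with a 95% interval of -0.10 to 0.30. Abcg2, whose dye efflux defines side population cells, had 10.68, 10.13, 10.66 and 9.67 in CD44hi and 10.96, 10.03, 10.87 and 9.87 in CD44lo. In both groups its arrays 1 and 3 were high and arrays 2 and 4 low. Its difference between the groups was -0.15 (95% interval -0.85 to 0.55, limma adjusted p = 0.932), while arrays 2 and 4 lay below arrays 1 and 3 by 0.77 in CD44hi (log2 difference -0.77) and by 0.97 in CD44lo (-0.97). By the probe set with the highest mean, Abcg2 was the 1 member of 36, or 2.78%, for which arrays 2 and 4 differed from arrays 1 and 3 by more than 0.5 in the same direction in both groups. Over all genes this held for 659, or 5.32%. Other probe sets of Abcc5 (1418042_a_at and 1418043_at, upwards) and Abcf1 (1452236_at, downwards) also passed this bound in both groups.

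**Figure D3:**
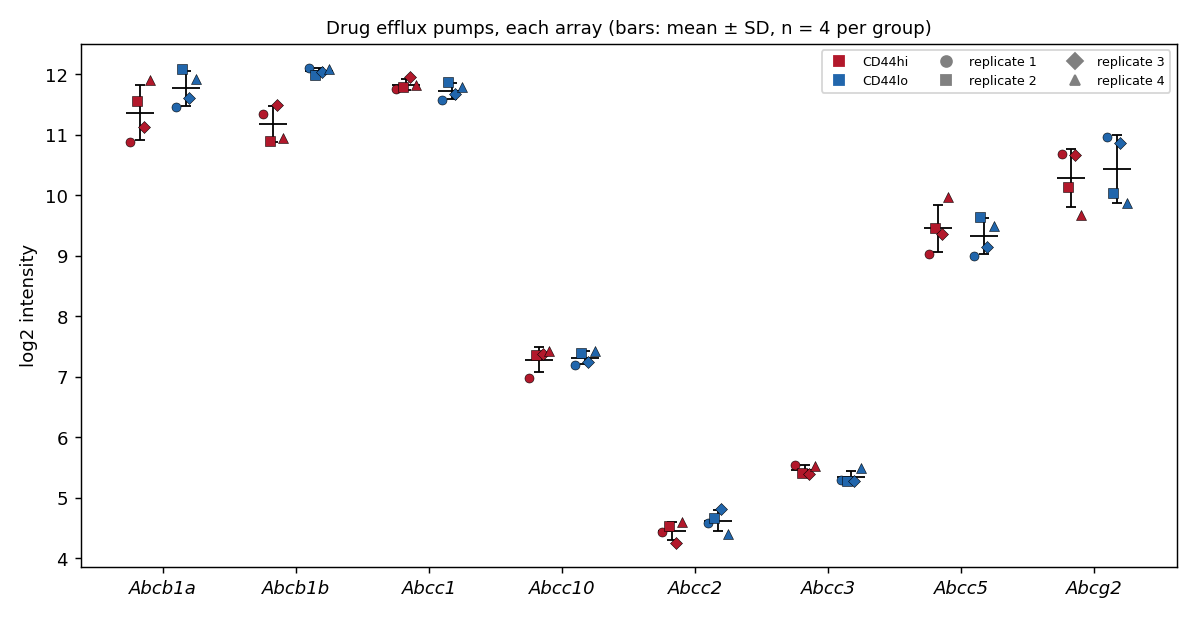
Log2 intensity of the 8 measured drug efflux pumps on each array, CD44hi in red left of CD44lo in blue, symbols giving the replicate number and bars the mean ± SD of 4 arrays. For Abcb1b all CD44hi points lie below all CD44lo points; Abcg2 splits by replicate number in both groups. Levels of different genes come from different probes and are not comparable.

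Abcc5, an exporter of cyclic nucleotides and nucleotide analogues, had 9.02, 9.46, 9.35 and 9.97 in CD44hi and 8.998, 9.64, 9.14 and 9.50 in CD44lo (log2 difference 0.13, 95% interval -0.34 to 0.61). Its 7 probe sets all differed upwards in CD44hi, by 0.13 to 0.97 with a median of 0.36, and none passed when every probe set was tested, with or without the block. The widest difference was that of 1418043_at, with 6.60, 8.92, 6.41 and 9.29 in CD44hi and 6.32, 7.23, 6.40 and 7.40 in CD44lo. Arrays 2 and 4 were high in both groups there, and CD44hi exceeded CD44lo by 0.14 between arrays 1 and 3 and by 1.79 between arrays 2 and 4. The remaining pumps were the hepatic conjugate exporters Abcc2 and Abcc3 and the taxane exporter Abcc10. Abcc2 had 4.43, 4.52, 4.25 and 4.60 in CD44hi and 4.58, 4.66, 4.82 and 4.40 in CD44lo, with both group means below the 25th percentile of all values. For Abcc3 the values were 5.53, 5.41, 5.39 and 5.53 in CD44hi and 5.28, 5.28, 5.27 and 5.50 in CD44lo. Abcc10 had 6.97, 7.36, 7.37 and 7.43 in CD44hi and 7.20, 7.39, 7.25 and 7.43 in CD44lo. The groups overlapped for all 3, with differences of -0.17 (Abcc2), 0.13 (Abcc3) and -0.03 (Abcc10). Endothelial cells are known for high P-glycoprotein and Abcg2. Of 7 endothelial markers 0 passed, and the groups did not overlap for Cldn5 (log2 difference -0.16, limma adjusted p = 0.423). The summed intensity of these markers ran from 169.3 to 184.7 in CD44hi and from 172.7 to 191.8 in CD44lo, with no array standing out.

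Among the exporters of lipids, sterols and bile salts, 11 of 12 listed genes were measured. Over all genes 2.03% rose and 1.78% fell. Of the 11 exporters 1 rose, 0 fell and 10 did not pass (median difference -0.00336). The 1 was Abca1, which hands cholesterol and phospholipid to lipid-poor apolipoprotein A-I and is a classical target of the liver X receptors. Its log2 intensities were 5.83, 6.71, 5.75 and 6.36 in CD44hi and 4.64, 4.72, 4.51 and 4.54 in CD44lo. All CD44hi arrays lay above all CD44lo arrays, and within CD44hi arrays 2 and 4 were the higher. CD44hi averaged 6.16 ± 0.45, against 4.60 ± 0.09 in CD44lo (SD, 4 arrays each). This made Abca1 2.95-fold higher in CD44hi, a log2 difference of 1.56 with SE 0.20 and, by limma, an adjusted p of 0.00242. It was 1.21 between arrays 1 and 3 and 1.90 between arrays 2 and 4. With the means of these array pairs as the values, 2 per group, it no longer passed (limma adjusted p = 0.273).

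The rise of Abca1 was seen with 1 of its 3 probe sets, 1421840_at. Probe set 1421839_at had means of 4.07 in CD44hi and 3.88 in CD44lo (log2 difference 0.19, limma adjusted p = 0.494), and 1450392_at 4.10 and 4.15 (-0.05, limma adjusted p = 0.955). Both lay near 12 control probe sets for bacterial transcripts, whose array medians were 3.76 to 3.93, where a difference is hard to measure. By replicate number 1421839_at was higher in CD44hi at all 4 (by 0.03 to 0.36), and 1450392_at at 1. The CD44lo mean of 1421840_at was itself under the 25th percentile. The size of the rise is therefore uncertain: it was 0.57 with the mean of the probe sets and 0.89 on the scale log2(intensity + 32), and passed in both (limma adjusted p = 0.0122 and 0.0127). Both values draw on 1421840_at and are no separate support for the rise. Macrophages carry much Abca1, and of 8 macrophage markers measured 0 passed. Their summed intensity ran from 457.5 to 1447 in CD44hi and from 482.8 to 1061 in CD44lo, most of it from Cd68, which was high on arrays 2 and 4 of both groups (8.01, 10.23, 8.20 and 10.29 in CD44hi, 8.20, 9.75, 8.23 and 9.76 in CD44lo). The colony-stimulating factor receptor gene Csf1r averaged 5.51 in CD44hi and 5.44 in CD44lo. Over the 8 markers log2 differences ran from -0.22 (Adgre1) to 0.26 (Lyz2), with 6 above 0 and 2 below. Lyz2 was higher in CD44hi at all 4 replicate numbers (limma adjusted p = 0.452). The part of such cells in the Abca1 difference was not tested. Next to Abca1 on chromosome 4, Slc44a1, which codes for a choline transporter, rose too (log2 difference 0.58, SE 0.08, limma adjusted p = 0.00257), while the other 5 measured genes within 3 places did not pass.

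**Figure D4:**
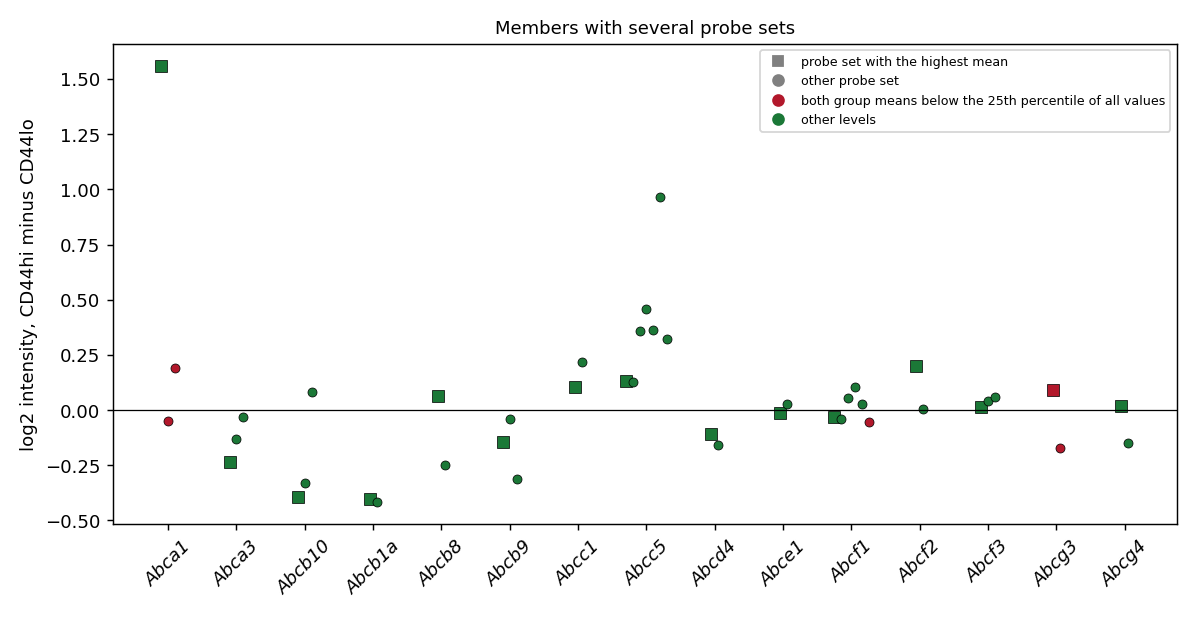
Difference in log2 intensity, CD44hi minus CD44lo, of every probe set of the 15 members with several. Squares are the probe set with the highest mean, circles the others, and red marks probe sets with both group means below the 25th percentile of all values. The 3 Abca1 probe sets run from -0.05 to 1.56, the 7 of Abcc5 all lie above 0, and both of Abcb1a lie near -0.41.

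Abcg1, which passes sterol on to high-density lipoprotein, had 11.42, 11.29, 11.22 and 10.75 in CD44hi and 11.33, 11.08, 11.26 and 10.97 in CD44lo. The groups overlapped, with a difference of 0.01 and a 95% interval of -0.33 to 0.35. Abca3, which loads surfactant lipid into lamellar bodies of the lung, had 10.58, 10.88, 10.78 and 11.24 in CD44hi and 10.98, 11.19, 11.03 and 11.21 in CD44lo (log2 difference -0.23, limma adjusted p = 0.591). Abca7, a phospholipid transporter, had 8.80, 9.23, 9.08 and 9.70 in CD44hi and 9.21, 9.68, 9.36 and 9.46 in CD44lo (log2 difference -0.23, limma adjusted p = 0.764). Both overlapped between the groups. The others of this role were Abca2, the retinal transporter Abca4, the bile salt pump Abcb11, the brain sterol exporter Abcg4 and the gut and liver sterol pair Abcg5 and Abcg8, with differences of -0.17 (Abca2) to 0.03 (Abcg8). The Abcb11 and Abcg5 means were under the 25th percentile in both groups.

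Transporters of mitochondria and lysosomes, which work as dimers, had 5 measured members of 6, of which 0 passed in either direction (median difference -0.11). In Abcb10, a protein of the inner mitochondrial membrane tied to haem synthesis, the groups did not overlap: 10.25, 9.82, 10.20 and 9.79 in CD44hi and 10.34, 10.60, 10.34 and 10.37 in CD44lo. The difference was -0.39 (SE 0.13) with a limma adjusted p of 0.183, or 0.165 with the block. It was -0.11 between arrays 1 and 3 and -0.68 between arrays 2 and 4, and its other probe sets differed by -0.33 and 0.08. Abcb6, a porphyrin transporter, had 10.94, 10.54, 11.17 and 11.08 in CD44hi and 11.06, 10.97, 11.20 and 10.90 in CD44lo. Abcb8, also of the inner mitochondrial membrane, had 9.78, 9.68, 9.91 and 9.87 in CD44hi and 9.65, 9.80, 9.70 and 9.84 in CD44lo. Both overlapped between the groups. The lysosomal peptide transporter Abcb9 and the lysosomal cobalamin transporter Abcd4 differed by -0.14 and -0.11.

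Of the peroxisomal importers of fatty acids, Abcd3 had 11.92, 12.13, 12.08 and 12.08 in CD44hi and 12.14, 12.10, 12.15 and 12.11 in CD44lo. Abcd2, for very long chains, had 5.56, 5.82, 5.93 and 5.99 in CD44hi and 5.85, 6.08, 6.06 and 5.88 in CD44lo. Neither passed, at -0.07 and -0.15. Abcc8 and Abcc9 code for the sulphonylurea receptors, which regulate potassium channels and transport nothing themselves. Abcc8 had 6.42, 6.60, 6.24 and 6.28 in CD44hi and 6.01, 6.19, 6.11 and 6.22 in CD44lo. The groups did not overlap, by a narrow gap, and the difference of 0.25 (SE 0.10) did not pass (limma adjusted p = 0.297). Abcc9 had 3.74, 3.69, 3.70 and 3.99 in CD44hi and 4.26, 3.78, 3.91 and 3.49 in CD44lo, all at the level of the dimmest probe sets.

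The E and F subfamilies have the paired ATP-binding domains but no membrane part, and serve translation. Abce1, which splits ribosomes for reuse, had the tightest groups of these: 13.43, 13.43, 13.45 and 13.46 in CD44hi and 13.44, 13.43, 13.51 and 13.45 in CD44lo, a difference of -0.01 with a 95% interval of -0.16 to 0.13. Abcf1 had 12.41, 12.26, 12.59 and 12.44 in CD44hi and 12.58, 12.34, 12.51 and 12.38 in CD44lo. Abcf3 had 10.53, 10.79, 10.73 and 11.12 in CD44hi and 10.62, 10.90, 10.65 and 10.95 in CD44lo. The 4 genes of this role differed by -0.03 to 0.20 and 0 passed. The 0.20 was that of Abcf2, which had 10.97, 10.44, 10.94 and 10.26 in CD44hi and 10.50, 10.42, 10.59 and 10.30 in CD44lo. For Abcf2 the difference was 0.41 between arrays 1 and 3 and -0.01 between arrays 2 and 4.

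The 4 genes outside these roles were dim in both groups, with all means below the 25th percentile of all values. Abca8b had 4.78, 4.59, 4.81 and 4.65 in CD44hi and 4.60, 4.66, 4.54 and 4.62 in CD44lo. Abcg3, a rodent gene, had 4.13, 4.10, 4.29 and 4.41 in CD44hi and 4.13, 4.16, 4.15 and 4.14 in CD44lo. Abcc6, known from the liver, had 4.30, 4.03, 3.98 and 4.21 in CD44hi and 4.24, 4.17, 4.04 and 3.86 in CD44lo. Together with Abca8a they differed by 0.05 to 0.10, without passing.

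**Figure D5:**
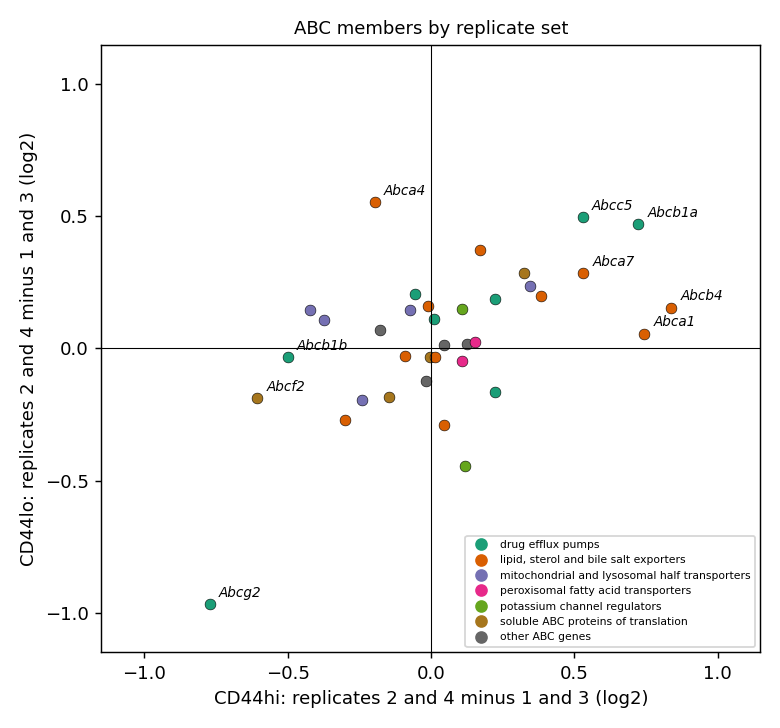
Mean log2 intensity of replicates 2 and 4 minus that of replicates 1 and 3, in CD44hi (x axis) and CD44lo (y axis), for the 36 members, coloured by role. Abcg2 lies lowest at -0.77 and -0.97, and Abcb1a (0.72 and 0.47) and Abcc5 (0.53 and 0.50) lie upper right, while Abca1 and Abcb4 lie far right (0.75 and 0.84 in CD44hi) near 0 in CD44lo.

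The ABC genes with another symbol are the peptide transporter subunits Tap1 and Tap2 and the chloride channel Cftr. Tap2 rose, with 11.68, 11.70, 11.55 and 11.70 in CD44hi and 10.89, 11.28, 11.07 and 11.07 in CD44lo (log2 difference 0.58, SE 0.09, limma adjusted p = 0.00889). Its partner Tap1 averaged 13.55 in CD44hi and 13.50 in CD44lo and did not pass. Cftr was at 3.88 and 3.90, near the bacterial controls.

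Genes of glutathione, of xenobiotic and sterol sensing, of sterol handling and of drug response outside the family were listed too. Their counts stand against the 2.03% of all genes that rose and 1.78% that fell. With the replicate block these shares were 3.08% and 3.11%. Of 17 genes of glutathione synthesis and conjugation, 0 rose and 1 fell, the transferase Gstt1, with 6.94, 7.65, 7.17 and 7.58 in CD44hi and 8.19, 7.96, 8.003 and 8.09 in CD44lo (log2 difference -0.73, SE 0.16, limma adjusted p = 0.0385). With the replicate block the transferases Gstm1 (-0.44) and Gstk1 (-0.52) fell as well (limma adjusted p = 0.0255 and 0.0484, or 0.375 and 0.0731 without it). Of 14 sensors of xenobiotics and sterols, such as the liver X receptor gene Nr1h3 and Nfe2l2, and of 10 sterol uptake and efflux partners, such as Apoe and Npc1, 0 passed with or without the block. Median differences of the 3 lists were -0.06, -0.02 and -0.05. Of 15 other drug response genes 1 rose and 0 fell. The 1 was Mgmt, which repairs alkylated guanine, with 6.73, 7.10, 6.72 and 6.96 in CD44hi and 6.14, 5.94, 5.90 and 6.01 in CD44lo (log2 difference 0.88, SE 0.11, limma adjusted p = 0.00168). With the replicate block the epoxide hydrolase Ephx1 fell (-0.69) and the haem oxygenase Hmox1 rose (0.82), at limma adjusted p of 0.00398 and 0.0400, or 0.0941 and 0.479 without it. Drug targets and vault genes such as Top2a and Mvp did not pass.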

How the data were processed

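Per the labels' protocols, the authors summarised Affymetrix Mouse 430A 2.0 scans by RMA (robust multichip averaging); the sources used here give neither version nor options. The deposited intensity values span 7.61 to 36128 and were taken as linear. They were turned into log2, with nothing added. Where several probe sets named a gene, the brightest on average stood for it. CD44hi and CD44lo, 4 arrays each by their titles, were compared over 12393 genes by limma 3.58.1 (lmFit, eBayes; R 4.3.3), no covariate, and Benjamini-Hochberg adjustment. The code was tested on simulated data.

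Same-numbered arrays deviated together (correlations 0.404 to 0.574, all above 0.1). Differently numbered arrays that are both odd or both even did so too (0.372 to 0.521). The bound of 0.1 therefore cannot tell pairing by number from a split into arrays 1 and 3 and arrays 2 and 4. Pairing by number was assumed for the block, and blocked values stand beside results they change. Members, role lists and rules were chosen with earlier results of these data known. Values per array are given for called members, the drug efflux pumps and up to 3 members per role with the highest mean; Abcb4, Abcf2, the gene neighbours, and Cd68 and Csf1r were chosen after their values were seen. Alternatives were other pairing, normalization, filters, probe sets, variance models, weights, scale and threshold, and leaving out arrays or replicate pairs. Some genes listed by role were not analysed here.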

Additional observations from a re-analysis of the deposited data

Results flagged for a closer look

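In 3 of the 72 groups of 4 values examined (36 members in each sorted group), 1 array lay far from the other 3; about 1 in 20 groups would do so by chance for independent values. For Abcc10, CD44hi replicate 1 had 6.97, against 7.36 to 7.43 on the other arrays. For Abcb10, CD44lo replicate 2 had 10.60, against 10.34 to 10.37 on the other arrays. For Abcc3, the value of CD44lo replicate 4 was 5.50, with 5.27 to 5.28 elsewhere in CD44lo. None of these 3 genes passed the test between the groups.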

How the results depend on the processing

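Against 1 member higher and 1 lower in CD44hi, and 0 pumps higher and 1 lower, the counts changed under 4 alternatives. Among genes with a mean above the median (17 members) 0 rose, since Abca1 is not among them. With arrays 1 and 3 alone 2 rose (Abca1 and, by 0.41, Abcf2, limma adjusted p = 0.0410), and with arrays 2 and 4 alone 2 fell (Abcb1b and Abcb10, at -0.68, limma adjusted p = 0.0440). With the means of arrays 1 and 3 and of 2 and 4 as values, which leaves 2 per group, 0 rose and 0 fell, members and pumps alike; there the limma adjusted p was 0.273 for Abca1 and 0.424 for Abcb1b, whose differences this averaging cannot alter. Leaving out 1 array kept the counts at 1 and 1 and the pumps at 0 and 1, with Abca1 at 1.38 to 1.70 (limma adjusted p up to 0.0121) and Abcb1b at -0.99 to -0.79 (up to 0.0302). Over all alternatives Abca1 ran from 0.57 to 1.90 and Abcb1b from -1.12 to -0.65. The replicate block changed no call of a member. Of 765 member values under alternatives 2 lost the call, 2 gained it and 0 called ones reversed; 67 uncalled values changed sign. For 8 dim members low signal limits what could be seen.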
